A study of Mus musculus with 6 samples.

Results

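The genes examined here encode the subunits, regulators and assembly factors of the proteasome. They were chosen by name: every non-control probe whose gene name began with Psma to Psmg and a number, leaving out Psmb8, Psmb9 and Psme2. This took 46 genes, measured by 56 probes, of 23484 gene names on the array. They fell into roles: 8 alpha and 9 beta subunits of the 20S core, 6 ATPases and 11 other subunits of the 19S regulator, 4 activators or inhibitors, and 7 assembly factors. The remaining gene, Psmc3ip, encodes a partner of meiotic recombinases and is no proteasome subunit. It is in no role group below, but the counts, medians and correlations over all members include it.

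The study compared the mouse macrophage line RAW264.7, an established cell line, with and without AEPS, a polysaccharide from the roots of Actinidia eriantha. Controls were kept in DMEM medium for 4 h and treated cells received AEPS at 50 µg/ml for 4 h, with 3 samples per group. Both groups share the cell line and carry no other agent, and a single line limits what the comparison covers. In both groups replicates 1 and 2 had the same scanner values, so the scanner data hold 4 distinct 1-colour arrays, 2 per group, in 2 scans with 1 array of each group. The authors' deposited value table holds 3 distinct columns per group; its replicate 1 and 2 columns ranked probes as these arrays did, and its replicate 3 columns matched no scanner file.

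The proteasome degrades proteins tagged with ubiquitin. Its 20S core is a barrel in which alpha subunits form the outer rings and gate the entry, and beta subunits form the inner rings that carry the protease sites. The 19S regulator caps the core, and its ATPases unfold substrates while its other subunits bind and remove ubiquitin. In macrophages the proteasome also degrades the inhibitors that hold NF-kB in the cytoplasm and makes peptides for antigen presentation. The transcription factor encoded by Nfe2l1 is known to raise the subunit genes together when the proteasome is impaired.

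Of the 46 genes, 38 had at least 1 RefSeq promoter window (assembly GRCm38.p6), which runs from 250 bases before to 50 bases after an annotated start. The windows below are shown for Psma6 and Psmd14, the members with the highest changes, and for 3 genes with an antioxidant element core, Psmd12 above the controls and the protease subunits Psmb5 and Psmb6 below them. Capitals mark CCAAT on either strand in the windows of Psma6 and Psmd14, and TGACNNNGC, the core of the antioxidant response element, on either strand in the others.
Psma6, chr12:55383972-55384271, plus strand: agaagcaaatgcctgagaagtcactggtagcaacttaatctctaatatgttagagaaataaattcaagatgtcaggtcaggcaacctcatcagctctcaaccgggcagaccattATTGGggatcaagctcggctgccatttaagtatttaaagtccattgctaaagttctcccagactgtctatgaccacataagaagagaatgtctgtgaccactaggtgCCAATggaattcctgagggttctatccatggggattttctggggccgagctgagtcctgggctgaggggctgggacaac
Psma6, second start, chr12:55398575-55398874, plus strand: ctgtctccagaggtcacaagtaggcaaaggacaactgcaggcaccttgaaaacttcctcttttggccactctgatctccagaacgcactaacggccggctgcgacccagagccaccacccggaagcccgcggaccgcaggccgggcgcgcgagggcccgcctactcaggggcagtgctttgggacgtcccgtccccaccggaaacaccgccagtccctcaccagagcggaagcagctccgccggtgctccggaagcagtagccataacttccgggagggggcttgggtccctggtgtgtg
Psmd14, chr2:61711444-61711743, plus strand: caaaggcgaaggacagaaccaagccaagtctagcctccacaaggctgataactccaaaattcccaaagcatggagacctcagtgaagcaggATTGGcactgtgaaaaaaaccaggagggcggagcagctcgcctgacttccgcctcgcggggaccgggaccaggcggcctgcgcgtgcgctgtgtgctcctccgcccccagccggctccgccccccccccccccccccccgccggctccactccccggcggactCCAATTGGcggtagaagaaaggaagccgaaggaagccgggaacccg
Psmd12, chr11:107479278-107479577, plus strand: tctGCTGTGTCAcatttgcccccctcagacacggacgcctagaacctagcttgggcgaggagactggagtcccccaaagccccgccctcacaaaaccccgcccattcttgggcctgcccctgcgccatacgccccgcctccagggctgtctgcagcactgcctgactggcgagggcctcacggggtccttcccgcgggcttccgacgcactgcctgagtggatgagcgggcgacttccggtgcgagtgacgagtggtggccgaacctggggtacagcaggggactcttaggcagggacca
Psmb5, chr14:54617946-54618245, minus strand: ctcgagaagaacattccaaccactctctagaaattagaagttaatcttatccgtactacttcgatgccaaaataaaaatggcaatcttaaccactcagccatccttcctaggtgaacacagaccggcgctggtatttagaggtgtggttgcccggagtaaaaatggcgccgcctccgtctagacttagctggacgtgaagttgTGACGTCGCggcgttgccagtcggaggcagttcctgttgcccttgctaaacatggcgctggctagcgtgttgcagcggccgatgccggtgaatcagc
Psmb6, chr11:70525107-70525406, plus strand: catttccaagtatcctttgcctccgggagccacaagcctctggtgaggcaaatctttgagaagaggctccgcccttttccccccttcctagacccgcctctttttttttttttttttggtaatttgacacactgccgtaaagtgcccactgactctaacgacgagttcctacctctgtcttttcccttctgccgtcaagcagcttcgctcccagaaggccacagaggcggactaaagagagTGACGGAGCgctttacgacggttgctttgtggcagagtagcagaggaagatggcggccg
The antioxidant core stood in 6 of 40 member windows, 15.0%, against 12.4% of all 32851 windows. These 6 genes were Psmb5, Psmb6, Psmc6, Psmd12, Psmd9 and Psme4, and their changes lay above 0 in 3 and below 0 in 3. Its first base lay at -47 in Psmb5, at -9 in Psmb6 and at -247 in Psmd12. CCAAT stood in 14 member windows, 35.0%, against 37.4% of all windows, and the second start of Psma6 held none. The strict NF-kB motif stood in 0 of 40 member windows, against 1.63% of all windows, and a looser form of it, which contains it, in 52.5% against 50.8%. The core motif of nuclear respiratory factor 1 stood in the windows of Psma2 and Psmg1, against 0.971% of all windows.

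Of 45 tested members 1, Psma6, rose and 0 fell on the scanner arrays by limma with Benjamini-Hochberg adjustment at 0.05 over 25942 features. Over all features 4.17% were called higher and 2.93% lower, so this count is near the background. Psma6 was called under 12 of 17 alternatives. It did not pass when any 1 of the 4 arrays was left out, with changes of 1.03 to 1.32 (limma adjusted p = 0.0651 to 0.213), or when dim probes were kept (adjusted p = 0.176). At an unadjusted p under 0.05 there were 11 members, against 32.6% of all features. Testing needed a probe to be flagged well above background on both arrays of a group, and all 45 tested members were well above it on every array. Psmb11, the thymus-specific beta subunit, was not well above background on any array and was not tested.

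The members' log2 changes had a median of 0.13, from -0.55 to 1.17, with 30 above 0 and 15 below. All tested features had a median of -0.19, and all named genes -0.11. The members' medians in scans 1 and 2 were 0.14 and 0.13. Log2 values on the scanner arrays are relative to each array's 75th percentile, so a change is relative to the other probes of the array. Scaling to spike-in probes instead raised every change alike, which put the median of all features at 0.43 and that of the members at 0.75, and under it 19 members were called higher and 0 lower, against 24.5% and 1.29% of all features. The changes below are relative to the percentile scaling. In bulk RNA, fewer cells of a type and less RNA per cell cannot be told apart.

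The scan served as a replicate block, since arrays of one scan deviated from their group means together. With it, 9 members were called higher and 2 lower, against 13% and 16.8% of all features. In the authors' table, fitted with no block, 18 members were called higher and 4 lower, against 17.1% and 16.4% of all features. With the replicate block the table gave 20 and 6, against 23.5% and 26.3%. In that table all 3 AEPS samples exceeded all 3 controls for 22 members and lay below them for 10, against 23.4% and 24.7% of all features. The second scanner array of each group was deposited for replicate 3, although its values followed column 2 of the table, and it is called replicate 3 where an array is left out. The table's own replicate 3 pair, which matched no scanner file, moved in the scanner fit's direction for 41 of 45 members, or 91.1%, against 81.9% of all features. With 3 samples a group an exact two-sided permutation test of 1 gene cannot go below p = 0.1.

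**Figure D1:**
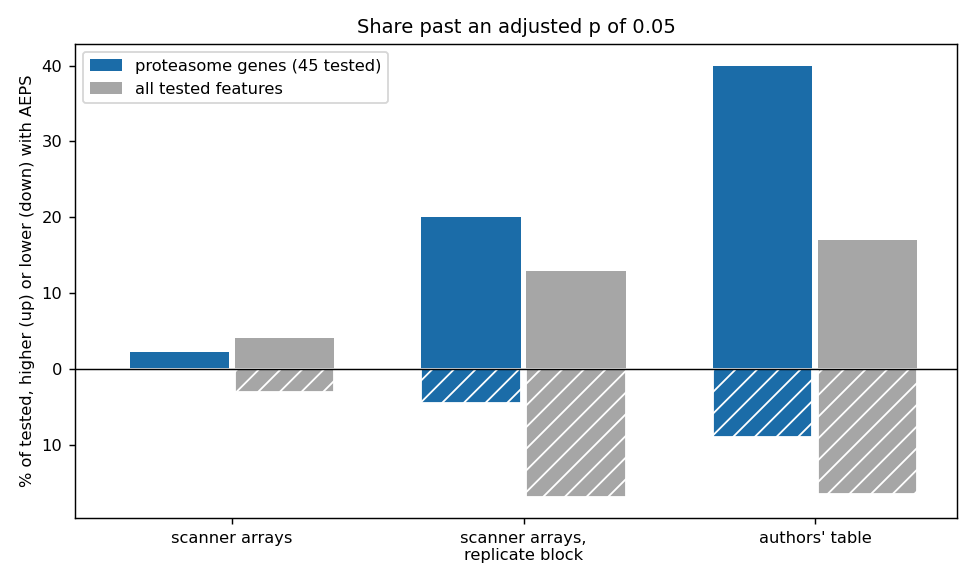
Share of tested features past an adjusted p of 0.05, upward for higher and downward (hatched) for lower with AEPS, for the 45 tested members (blue) and all 25942 features (grey). The members stand above the grey bar only for rises with the block and in the authors' table, where 9 and 18 of 45 members were called. The 45 include Psmc3ip, which is no proteasome subunit.

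Among the alpha subunits, 1 of 8 rose on the scanner arrays, 2 with the replicate block and 6 in the authors' table, and 0 fell in any of these. Of all features, 4.17%, 13% and 17.1% rose in these fits, and 2.93%, 16.8% and 16.4% fell. The alpha genes had a median change of 0.33, with 0.28 and 0.42 in the 2 scans. Psma6, an alpha ring subunit, measured 5.04 and 5.20 in controls against 6.15 and 6.43 with AEPS. The AEPS arrays both lay above the controls, and the rise was 1.17 ± 0.17 on the log2 scale (SE from limma, n = 2 arrays in each group for every scanner change), a fold of 2.26 (limma adjusted p = 0.0440). In the authors' table Psma6 had 13.46, 13.47 and 13.63 in controls and 14.58, 14.71 and 14.82 with AEPS. These groups did not overlap, and the table's change was 1.18 ± 0.10 (3 samples per group, as for all table changes below; limma adjusted p = 0.000889). Its probe lies on chromosome 12 at 56511127 to 56511186 in mm9, the build named in the file headers.

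Psma1, another alpha ring subunit, had 5.24 and 5.50 on control arrays and 5.87 and 6.02 on AEPS arrays. Its change of 0.57 ± 0.16 did not pass without the block (limma adjusted p = 0.110, and 0.0399 with it), but the table's 0.57 ± 0.07 did (adjusted p = 0.00275). Psma4, Psma3 and Psma2 had 0.45, 0.34 and 0.28, did not pass on the scanner arrays with or without the block, and passed in the table (adjusted p = 0.0211, 0.0474 and 0.0224). Psma5 had 0.13 (adjusted p = 0.627), and in the table its groups did not overlap (adjusted p = 0.0665, and 0.0370 with the block). Psma8, the testis form of an alpha subunit, was dim, at -1.16 to -0.74 over the 4 arrays, and had 0.32 ± 0.14 (adjusted p = 0.208, and 0.00844 in the table). Psma7 was the lowest of the alpha genes. It had 8.08 and 8.22 in controls and 7.79 and 7.94 with AEPS, a difference of -0.28 ± 0.15 that did not pass (adjusted p = 0.265).

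The beta subunits, which include the protease sites, had the lowest median of the 20S and 19S groups at -0.28, with -0.30 and -0.26 in the scans. With spike-in scaling that median was 0.34, and the values of Psmb5, Psmb6 and Psmb10 turned above 0 at 0.19, 0.24 and 0.36. On the scanner arrays 0 of 8 tested genes passed by limma, and 1 had an unadjusted p under 0.05, against 32.6% of all features. With the block Psmb2 rose and Psmb5 fell, against 13% and 16.8% of all features. Psmb5, the chymotrypsin-like subunit, had 8.99 and 9.27 on control arrays and 8.57 and 8.84 on AEPS arrays. Its AEPS values were lower in each scan, by -0.42 ± 0.19 (adjusted p = 0.210, and 0.0470 with the block). In the table it had 17.33, 17.33 and 17.47 in controls and 17.08, 17.19 and 17.20 with AEPS, a difference of -0.22 with a 95% interval of -0.41 to -0.03 (adjusted p = 0.0818, and 0.0400 with the block).

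Psmb6, the caspase-like subunit, had 8.44 and 8.66 in controls and 8.09 and 8.26 with AEPS, a difference of -0.37 ± 0.16 (adjusted p = 0.206). In the table it fell by 0.26 ± 0.07 (adjusted p = 0.0417), with 16.80, 16.78 and 16.78 in controls and 16.57, 16.58 and 16.42 with AEPS. Psmb7, the trypsin-like subunit, stood on the other side of 0. It had 5.47 and 5.67 in controls and 5.62 and 5.77 with AEPS, overlapping, with a change of 0.13 ± 0.16 (adjusted p = 0.607) and a table interval of 0.02 to 0.36 (adjusted p = 0.0903). Its inducible counterpart Psmb10, which replaces it in the immunoproteasome, had 6.63 and 6.70 in controls and 6.32 and 6.50 with AEPS, or -0.25 ± 0.14 (adjusted p = 0.294). The table gave Psmb10 a difference of -0.17 (adjusted p = 0.113). Psmb8 and Psmb9, the other inducible protease subunits, are not members and had -0.09 and -0.37 (adjusted p = 0.763 and 0.240). In the table Psmb8 had -0.01 (limma adjusted p = 0.929). There Psmb9 had -0.36 and passed (adjusted p = 0.0135), and its groups did not overlap.

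Psmb3 and Psmb4, structural beta subunits, had -0.39 and -0.30 and did not pass on the scanner arrays. In the table their groups did not overlap, and Psmb3 passed with the block (adjusted p = 0.107, and 0.0203 with it) while Psmb4 did not (0.100 and 0.0539). Psmb1 had 0.02. Psmb2 was the highest of the group. It had 3.43 and 3.48 in controls and 3.89 and 3.98 with AEPS, a change of 0.47 ± 0.13 (adjusted p = 0.106, 0.0433 with the block, and 0.00582 in the table).

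**Figure D2:**
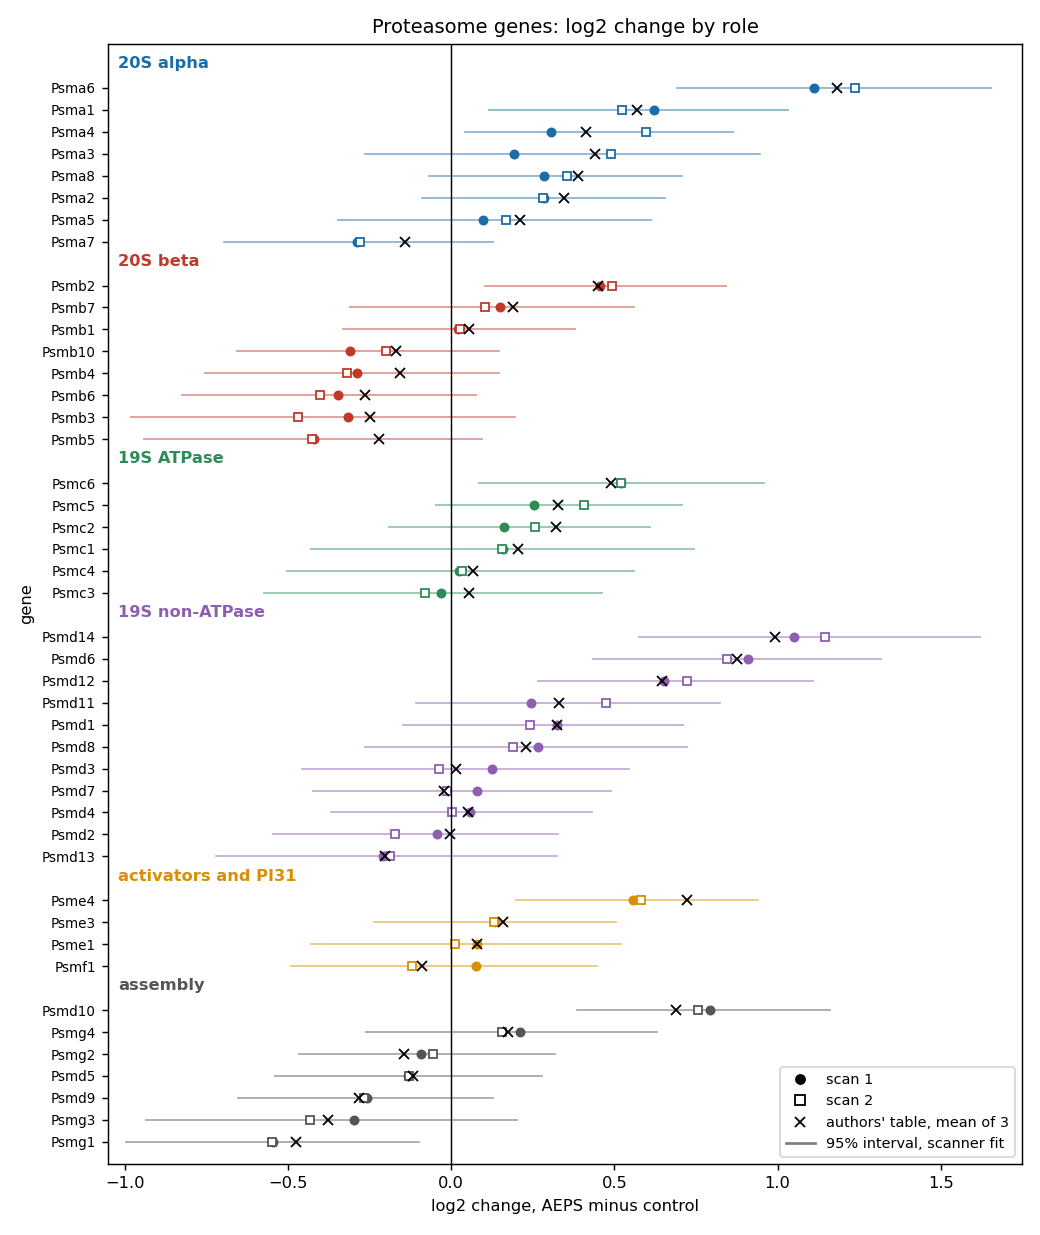
Log2 change (AEPS minus control) of 44 tested proteasome genes by role, in scan 1 (filled circles), scan 2 (open squares) and the authors' table (crosses, mean of 3 per group), with the 95% interval of the scanner fit as a line. Psma6 reaches 1.17 while the other alpha genes span -0.28 to 0.57, and 5 of 8 beta genes lie below 0, as scaled to the 75th percentile.

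Among the 19S ATPases 0 of 6 passed on the scanner arrays by limma, against 4.17% of all features called higher and 2.93% lower. An unadjusted p under 0.05 was found for 1, against 32.6% of all features. Of the 6, 3 rose and 0 fell in the table, against 17.1% and 16.4% of all features. The median of the ATPases was 0.18, with 0.16 and 0.21 in the scans. Psmc6 was the highest, at 1.92 and 2.10 in controls and 2.44 and 2.62 with AEPS. Its change was 0.52 ± 0.16 (adjusted p = 0.117, 0.0395 with the block, and 0.00624 in the table). Psmc5 and Psmc2 had 0.33 and 0.21 on the scanner arrays, did not pass there with or without the block, and passed in the table (limma adjusted p = 0.0484 and 0.0145). Psmc1 and Psmc4 had 0.16 and 0.03 and did not pass. Psmc3 was the lowest, with 8.25 and 8.54 in controls and 8.21 and 8.46 with AEPS. Its groups overlapped, and its difference of -0.06 ± 0.19 (adjusted p = 0.854) turned above 0 in the table at 0.05 and with quantile normalization at 0.07.

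Of the 11 other 19S subunits 0 passed on the scanner arrays by limma, though 3 had an unadjusted p under 0.05, against 32.6% of all features. With the block 3 rose, and 5 rose in the table, against 13% and 17.1% of all features. In both 0 fell, against 16.8% and 16.4%. The median of these subunits was 0.23, with 0.24 and 0.19 in the scans. Psmd14, the deubiquitinase that cuts ubiquitin from substrates, had 2.26 and 2.48 in controls and 3.31 and 3.62 with AEPS. The gap, a fold of 2.14 (log2 SE 0.19), was just outside the threshold (adjusted p = 0.0538, and 0.0337 with the block). In the table Psmd14 rose by 0.99 ± 0.10 (adjusted p = 0.00176), from 10.81, 10.91 and 11.09 to 11.83, 12.01 and 11.95.

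Psmd6, a lid subunit, had 3.58 and 3.80 in controls and 4.49 and 4.65 with AEPS, a change of 0.88 ± 0.16 (adjusted p = 0.0581, and 0.0337 with the block). The table put Psmd6 at 12.10, 12.17 and 11.99 in controls and 12.97, 12.98 and 12.94 with AEPS, a rise of 0.88 ± 0.07 (adjusted p = 0.00102). Psmd12, also of the lid, had 5.65 and 5.77 in controls and 6.30 and 6.50 with AEPS, a change of 0.69 ± 0.15 (adjusted p = 0.0744, 0.0354 with the block, and 0.00188 in the table). Both groups of each of these 3 genes were separate in the scanner data and in the table. Psmd1 and Psmd11, a scaffold and a lid subunit, had 0.28 and 0.36, did not pass on the scanner arrays with or without the block, and passed in the table (adjusted p = 0.0117 and 0.0235).

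Psmd4, the ubiquitin receptor, had 7.60 and 7.76 in controls and 7.66 and 7.76 with AEPS, a difference of 0.03 ± 0.14 (adjusted p = 0.899). The table's 95% interval for Psmd4 ran from -0.13 to 0.23. Psmd13 was the lowest, at 5.28 and 5.55 in controls and 5.07 and 5.36 with AEPS, or -0.20 ± 0.19 (adjusted p = 0.503, and 0.105 in the table, where its groups did not overlap). Psmd8 had 0.23 (adjusted p = 0.420), and its table groups did not overlap (adjusted p = 0.112, and 0.0277 with the block). Psmd2, Psmd3 and Psmd7 had -0.11, 0.04 and 0.03. The replicate 3 pair of the table, outside the scanner data, gave 0.86 for Psmd14, 0.95 for Psmd6 and 0.56 for Psmd12. Psmd6 and Psmd12 were named for their table change, which includes this pair, and Psmd14 met that criterion too. The pair is therefore no separate support for any of them.

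**Figure D3:**
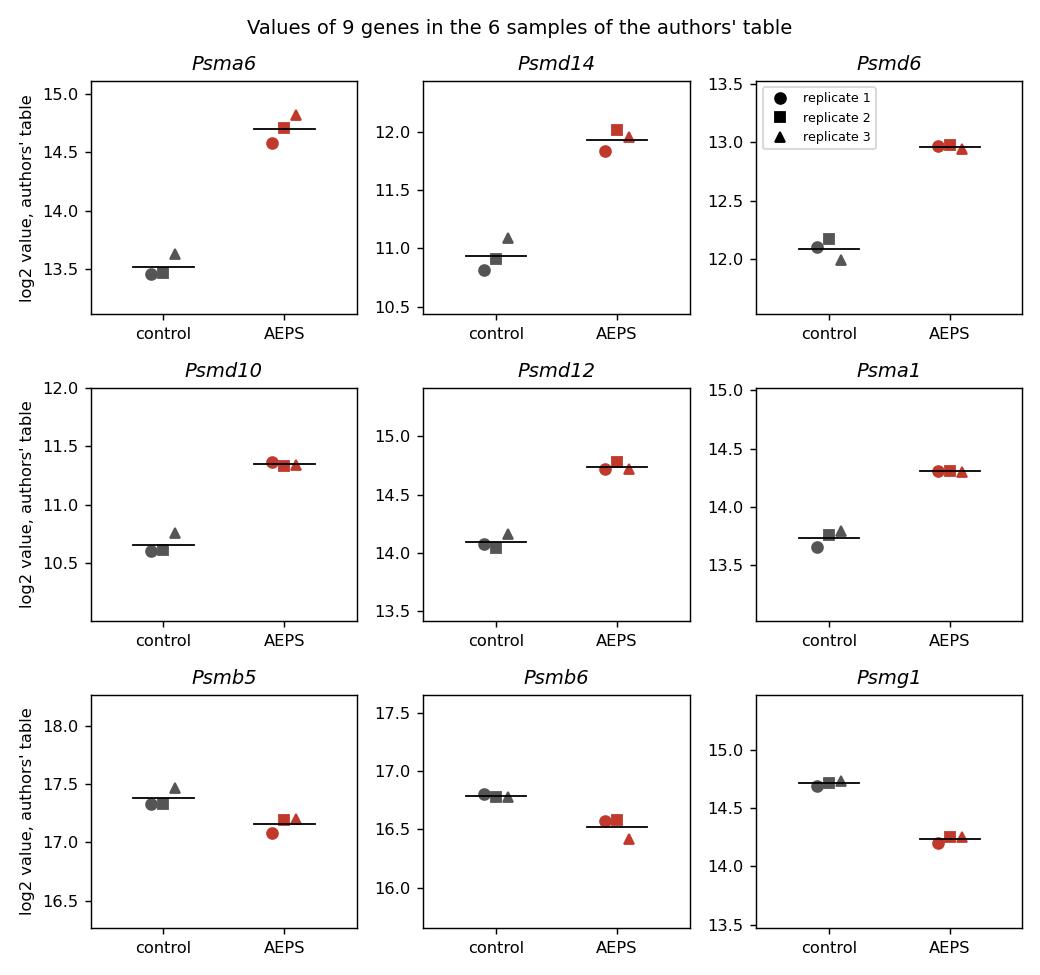
Log2 values of 9 genes in the 6 samples of the authors' table, with 1 symbol per replicate number and a line at each group mean; every panel spans the same range of log2 units. The AEPS samples lie above all controls for Psma6, Psmd14, Psmd6, Psmd10, Psmd12 and Psma1 and below all controls for Psmb5, Psmb6 and Psmg1.

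The activators and the inhibitor gave 0 calls among 4 genes on the scanner arrays by limma, and had a median of 0.09. At an unadjusted p under 0.05 there was 1, against 32.6% of all features. Psme1, a subunit of the interferon-inducible activator, had 0.05 ± 0.17 (adjusted p = 0.870), and its partner Psme2, which is no member, had 0.06. Psme3, the nuclear activator of the same family, had 0.13, and Psmf1, which encodes the inhibitor protein PI31, had -0.02 ± 0.17 (adjusted p = 0.939), with overlapping groups at 1.34 and 1.63 against 1.41 and 1.51.

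Psme4, the activator of histone-degrading proteasomes, had probes that went opposite ways. The one used above, brighter over all arrays but dimmer in the controls, at 30756055 to 30756114 on chromosome 11 in mm9, had -1.82 and -1.76 in controls and -1.27 and -1.18 with AEPS. Its change was 0.57 ± 0.13 (adjusted p = 0.0811, 0.0376 with the block, and 0.00909 in the table). The other probe of Psme4, at 30710953 to 30711012, had -1.43 and -1.34 in controls and -1.90 and -1.75 with AEPS, a difference of -0.44. Both probes are assigned to the same RefSeq transcript, so the direction of Psme4 is uncertain, and the mean of both probes changed it to 0.06 (adjusted p = 0.774). Of 10 members with 2 tested probes, the other 9 differed by at most 0.15 between probes. Among these, Psmc3 had probes on both sides of 0, at -0.06 for the one used and 0.09 for the other.

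Assembly genes were split in direction, with 2 changes above 0 and 5 below. On the scanner arrays 0 of 7 passed by limma, against 4.17% of all features called higher and 2.93% lower. Of the 7, 2 had an unadjusted p under 0.05, against 32.6% of all features. Among the assembly genes 1 rose and 3 fell in the table, against 17.1% and 16.4% of all features. The assembly median was -0.13 in each scan, and 0.49 with spike-in scaling, under which Psmg1 was at 0.07. Psmd10, the chaperone gankyrin that helps build the 19S base, had 2.04 and 2.17 in controls and 2.83 and 2.92 with AEPS. That change of 0.77 ± 0.14 did not pass (adjusted p = 0.0577, and 0.0342 with the block). It passed in the table at 0.69 ± 0.07 (adjusted p = 0.0020), with 10.60, 10.61 and 10.76 in controls against 11.37, 11.33 and 11.34, and its other probe had 0.73.

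Psmg1, a chaperone of alpha ring assembly, moved the other way. It had 6.30 and 6.50 in controls and 5.75 and 5.95 with AEPS, a difference of -0.55 ± 0.16 (adjusted p = 0.113, and 0.0383 with the block). In the table Psmg1 fell by 0.48 ± 0.06 (adjusted p = 0.00351), from 14.69, 14.71 and 14.73 to 14.20, 14.25 and 14.25. Psmg3, a further alpha ring chaperone, and Psmd9, a chaperone of the 19S base, had -0.37 and -0.26, and they fell in the table (adjusted p = 0.0214 and 0.0191). Psmd5, another base chaperone, had -0.13. Psmg4, the partner of Psmg3, had 0.18, and Psmg2, the partner of Psmg1, had -0.07. Psmc3ip, the gene that is no subunit, had 0.40 ± 0.18 (adjusted p = 0.215, and 0.0331 in the table).

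Among the members, changes differed with the brightness of the probes. The 6 members with a mean log2 level over 8, which include Psmb3, Psmb4, Psmb5 and Psmb6, had a median change of -0.34, and all 358 named genes at that level had -0.32. In the table the same genes had -0.19 and 0.008. Between levels of 2 and 4 the 8 members had a median of 0.44 against -0.02 for 2700 named genes. Across the 45 members level and change had a Pearson's r of -0.40 and a Spearman's rho of -0.43; the points share their arrays. Across all 14900 named genes these were 0.03 and 0.09. The named genes within 0.5 of the level of Psmb5 had a median of -0.22, and those near Psma6 had -0.07. Cyclic loess, which is meant to reduce differences that follow brightness, was added after the data were seen. With it 6 members were called higher and 0 lower, against 6.8% and 4.53% of all features. At levels over 8 its medians were still -0.17 for the members and -0.12 for the named genes. The median of the beta group was then -0.14 and that of the alpha group 0.44. The part of brightness in the lower beta values was not tested further.

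**Figure D4:**
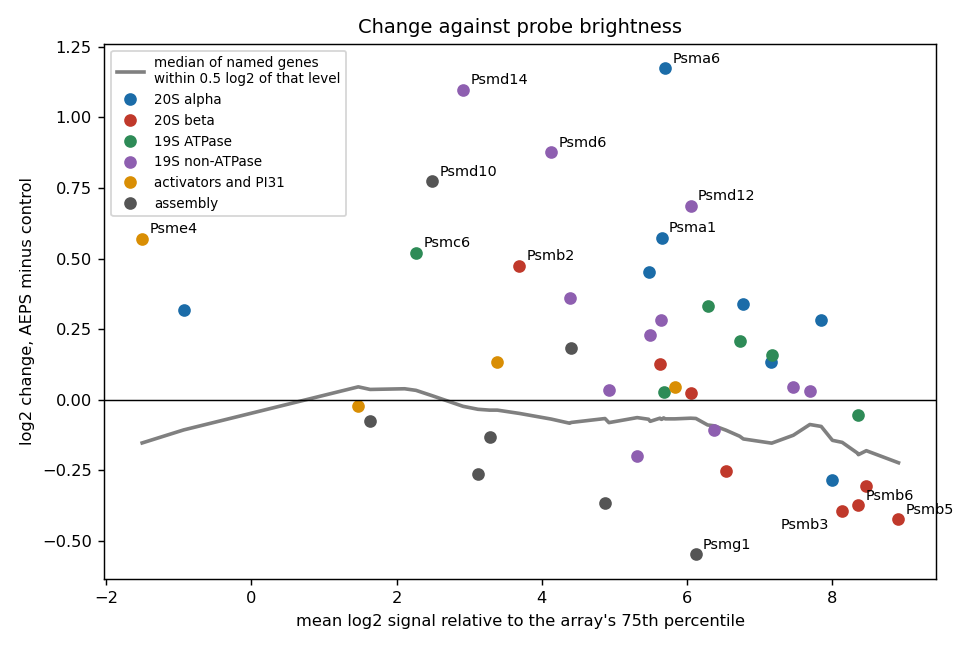
Log2 change (AEPS minus control) of 44 tested proteasome genes against their mean log2 signal relative to the array's 75th percentile, coloured by role; the grey line is the median change of named genes within 0.5 log2 of each member's level. The grey line falls to -0.22 at the level of Psmb5, and Psma6, Psmd14, Psmd6, Psmd10 and Psmd12 stand well above it.

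Of 36 further names of the ubiquitin-proteasome system listed, 30 were tested under the array's names. The list includes older symbols of the same gene and Pi31, another name of Psmf1. The median change of these 30 was 0.09. With the replicate block 7 rose and 1 fell, against 13% and 16.8% of all features. There were 9 higher and 3 lower in the table, against 17.1% and 16.4% of all features. On the scanner arrays with no block 1 rose and 0 fell, against 4.17% and 2.93% of all features, so this count is near the background. The gene that rose was Nfe2l2, which encodes the antioxidant regulator NRF2, at 1.33 ± 0.17 (limma adjusted p = 0.0378). Nfe2l1, the regulator named above, had -0.10 and 0.40 in controls and 0.25 and 0.63 with AEPS. Its groups overlapped, and the change was 0.29 ± 0.26 (adjusted p = 0.476, and 0.312 in the table). Pomp, the maturation factor of the core, had 6.25 and 6.35 in controls and 6.32 and 6.39 with AEPS, a difference of 0.06 ± 0.13 (adjusted p = 0.787).

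Over the 4 arrays 55.4% to 58.7% of 59305 non-control spots were well above background, and none was saturated. All 10 listed macrophage markers were well above it on every array, against 4 of 13 listed markers of T cells, B cells, fibroblasts and epithelium. On the control arrays these 4 had 4.42 and 4.21 (Cd4), 3.27 and 2.89 (Cd3e), -0.74 and -0.85 (Cd79a) and -1.37 and -2.19 (Col1a2). The macrophage markers ran there from -0.02 (Ptprc) to 9.56 (Csf1r), so Cd4 and Cd3e lay within their range. Among the macrophage markers Ptprc alone passed, rising by 0.93 (limma adjusted p = 0.048), against 4.17% of all features called higher. With the block 2 rose and 2 fell, against 13% and 16.8% of all features. Those that fell were Csf1r at -0.60 and Tyrobp at -0.58. Of 5 tested markers of the other types 0 passed, and Cd4 at -0.55 and Cd8a at -1.86 fell with the block. The part of these differences in the members' values was not tested. Whether each sample was its own culture is not stated in the labels, so the p-values measure only the spread between these samples, which may be technical. Precision is limited by how few arrays there are.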

How the data were processed

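RNA of 6 samples was labelled with Cy3 per the labels' protocols, and Agilent Feature Extraction 10.7.1.1 quantified the spots per the file headers. The deposited scanner files give background-subtracted, detrended intensity, plus 0 or 1 flags for each spot. The authors' deposited value table holds log2 values whose 6 columns share 1 distribution (median 4.71 in each); the sources used here do not describe the normalization. Its replicate 1 and 2 columns ranked probes as the scanner arrays did (Spearman at least 0.9998).

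Control spots and flagged spots were left out, spots of 1 probe averaged, and log2 signal taken minus each array's 75th percentile. A gene was represented by its tested probe with the highest mean over all arrays, which can favour a probe that rose. Of 55681 probes 26582 were named through RefSeq accessions of GRCm38.p6 and 4465 by the scanner annotation; both gave the members the same names. limma 3.58.1 in R 4.3.3 (lmFit, eBayes, no covariate) tested 25942 features with Benjamini-Hochberg adjustment, and was tested on simulated data. The table was fitted alike, on the same probes.

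Arrays of the same scan deviated together across features (r = 0.59), which with 2 arrays a group fixes the other pairings at -0.59. Same-numbered table columns had 0.56, 0.36 and 0.40, all above 0.1, so the scan or number served as a replicate block. Control column 3 and AEPS column 2, of different numbers, were also above that bound, at 0.23. Genes were named by a rule: those past the threshold, the extremes of each role, those called in the table with a change of at least 0.5, probe pairs differing by over 0.5, and a fixed list (the catalytic subunits, Psmd4, Psmd14, Pomp, Nfe2l1 and Nfe2l2). Other members with values were named after these were seen. Members, roles and lists were chosen with earlier results of these data known.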

Additional observations from a re-analysis of the deposited data

How the results depend on the processing

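The number of members called higher was 1, and became 5 with quantile normalization, 19 with spike-in scaling, 6 with normexp, 4 with probes above background on every array, 9 with the replicate block, 9 with a variance trend, 6 with cyclic loess (chosen after the data were seen) and 0 with no filter. In the authors' table it was 18, and 20 with the replicate block. Members called lower were 0, against 1 with normexp, 2 with the block, 1 with the trend, 4 in the table and 6 in the table with the block. All features called higher were 1082, against 6349 with spike-in scaling, 1982 with normexp, 3364 with the block, 2493 with the trend, 1765 with cyclic loess, 0 with no filter, 4425 in the table and 6091 there with the block. They were 1544 with quantile normalization and 1278 with probes above background on every array. All features called lower were 761, against 1259 with quantile normalization, 335 with spike-in scaling, 1792 with normexp, 4356 with the block, 2318 with the trend, 1175 with cyclic loess, 0 with no filter, 4248 in the table and 6835 there with the block. Other ubiquitin-proteasome genes called higher were 1, against 2 with quantile normalization, 10 with spike-in scaling, 4 with normexp, 7 with the block, 6 with the trend, 3 with cyclic loess, 0 with no filter, 9 in the table and 14 there with the block. Those called lower were 0, against 1 with normexp, 1 with the block, 1 with the trend, 3 in the table and 3 there with the block. The cause of these shifts was not tested.

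Spike-in scaling put the medians at 0.95 (alpha), 0.34 (beta), 0.80 (ATPases), 0.85 (other 19S), 0.71 (activators), 0.49 (assembly) and 0.75 (all members). The ATPase median was 0.26 in the table, 0.26 there with the block and 0.30 with cyclic loess. Spike-in scaling reversed Psma7 to 0.33, Psmb5 to 0.19, Psmb6 to 0.24, Psmb10 to 0.36, Psmc3 to 0.56, Psmd13 to 0.42, Psmf1 to 0.59 and Psmg1 to 0.068. Psmc3 was also above 0 with quantile normalization (0.067), normexp (0.057), the mean of probes (0.017), cyclic loess (0.11), in the table (0.053) and there with the block (0.053). With 1 array left out Psmc3 ranged from -0.20 to 0.091 (above 0 without control replicate 3 and, at 0.067, without AEPS replicate 1), and Psmf1 from -0.17 to 0.13. Psmd4 ranged from -0.048 to 0.11, and was at -0.021 without AEPS replicate 3.

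Leaving out 1 scanner array gave 0 to 0 members and 0 to 0 other ubiquitin-proteasome genes called in either direction, 7 to 445 features higher and 0 to 345 lower. The lone array left in a group is then assumed to vary like the other group. Medians ranged from 0.30 to 0.43 (alpha), -0.37 to -0.19 (beta), 0.057 to 0.31 (ATPases), 0.09 to 0.37 (other 19S), 0.005 to 0.17 (activators), -0.20 to -0.12 (assembly) and 0.02 to 0.23 (all members). Leaving out 1 sample of the table gave 11 to 15 members higher and 1 to 2 lower, 2848 to 3984 features higher and 2590 to 3748 lower, and 6 to 9 other genes higher and 0 to 3 lower. Its medians ranged from 0.36 to 0.41 (alpha), -0.18 to -0.15 (beta), 0.23 to 0.30 (ATPases), 0.17 to 0.29 (other 19S), 0.09 to 0.14 (activators), -0.24 to -0.12 (assembly) and 0.14 to 0.20 (all members). Of the values of single genes under alternatives, 424 kept direction and side of the threshold, 68 gained and 16 lost a call, and 20 reversed.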

Other observations

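The protein-coding genes beside the members on the chromosome were looked at after the members' values had been seen, and no explanation was tested. Of 63 distinct tested neighbours, 8 rose, or 12.7%, and 0 fell on the scanner arrays by limma. Of all features 4.17% rose and 2.93% fell, and of all named genes 5.24% and 3.46%. The 63 include Psmb5, itself a member, which lies beside Psmb11 and was not called. Nfkbia, which encodes the NF-kB inhibitor that the proteasome degrades, lies next to Psma6 and rose by 1.81 ± 0.18 on the log2 scale (adjusted p = 0.0272). Csf3, the granulocyte growth factor gene, lies next to Psmd3 and rose by 8.45 ± 0.27 (adjusted p = 0.00805), while Psmd3 had 0.04. Cdk5r1 beside Psmd11 rose by 3.53, Lcat beside Psmb10 by 2.05 and Ero1a beside Psmc6 by 1.64. Ftsj3 beside Psmc5, AW209491 beside Psma2 and Ets2 beside Psmg1 rose by 1.15, 1.08 and 0.97.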
